A study of Drosophila melanogaster with 3 samples.

Results

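Neuronal cell surface proteins with immunoglobulin domains or leucine-rich repeats, together with a few related adhesion proteins, were followed in wounded fly embryos. The genes were taken by symbol and cover the families DIP, dpr, beat, side, Dscam, kek and Fas, the guidance receptor genes robo and *fra*, the leucine-rich repeat genes *caps*, *trn* and *Con*, the N-cadherin genes, and *Lac*, *wrapper*, *klg*, *sdk* and *tutl*. Of 81 reference genes whose symbols match, 48 had a spot annotated with that gene alone, and 47 of these had a value on every array, out of 8247 genes measured in all. The 48th, *side-VIII*, had no value on any array. The other 33, among them *side*, *Fas2*, *Fas3*, *robo2* and *robo3*, are not analysed here under their own names. The group was proposed with the log2 ratios of these arrays known, and the clones of *DIP-zeta*, *kek3* and *Dscam2* were chosen by those ratios, so the values below are a description and carry no test.

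The study compared wild-type *Drosophila melanogaster* embryos wounded by laser ablation (labelled with Cy5) with unwounded embryos (labelled with Cy3) on 3 arrays with 2 colours, A, B and C. Neither the age of the embryos nor the time after wounding is stated in the labels, nor is it stated whether each array had its own batch of embryos. Every array carried the same dye orientation, so wounding and a dye effect of a spot cannot be told apart. Values are log2 ratios, and a positive value is called a high ratio. A high ratio likely stands for more transcript in wounded embryos, since Cy5 is the usual numerator and wounded comes before nonwounded in the series title. The array titles use the opposite order, and under an inverted ratio high and low would exchange throughout. Since whole embryos were used, fewer cells of a type and less RNA per cell cannot be told apart, and a ratio gives no expression level against which the neuronal label could be checked.

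As background, these proteins sit on growing axons, dendrites, glia and their targets, where homophilic and heterophilic binding sorts axon bundles, matches synaptic partners and keeps branches of 1 cell apart. The Dpr proteins and their binding partners, the DIPs, each have a small set of immunoglobulin domains and are expressed in many different combinations by neurons, and the Beat and Side proteins form a second network of this kind. Robo and Frazzled receive the midline cues Slit and Netrin. Several members also act outside the nervous system, such as *Lac*, which encodes a septate junction protein needed in the trachea.

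Most of these genes lay close to a ratio of 1. The mean log2 ratio was under 0.1 in size for 27 of the 47 genes (57.4%) and for 60.4% of all genes, and it was 0.3 or more in size for 2 of the 47 (4.26%) and for 7.04% of all genes. The median was 0.02 for the surface protein genes and −0.0002 for all genes, and 31 of the 47 had a positive mean (66.0%), where 49.9% of all genes did. The ratio was above 0 on all 3 arrays for 14 of the 47 genes, against 20.7% of all genes, and below 0 on all 3 for 4, against 20.8% of all genes. The 14 were *kek3*, *tutl*, *dpr15*, *Dscam2*, *dpr19*, *kek5*, *dpr8*, *dpr18*, *dpr16*, *CadN*, *kek1*, *dpr11*, *beat-IV* and *DIP-theta*, and the 4 were *DIP-zeta*, *dpr20*, *dpr5* and *Con*.

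**Figure D1:**
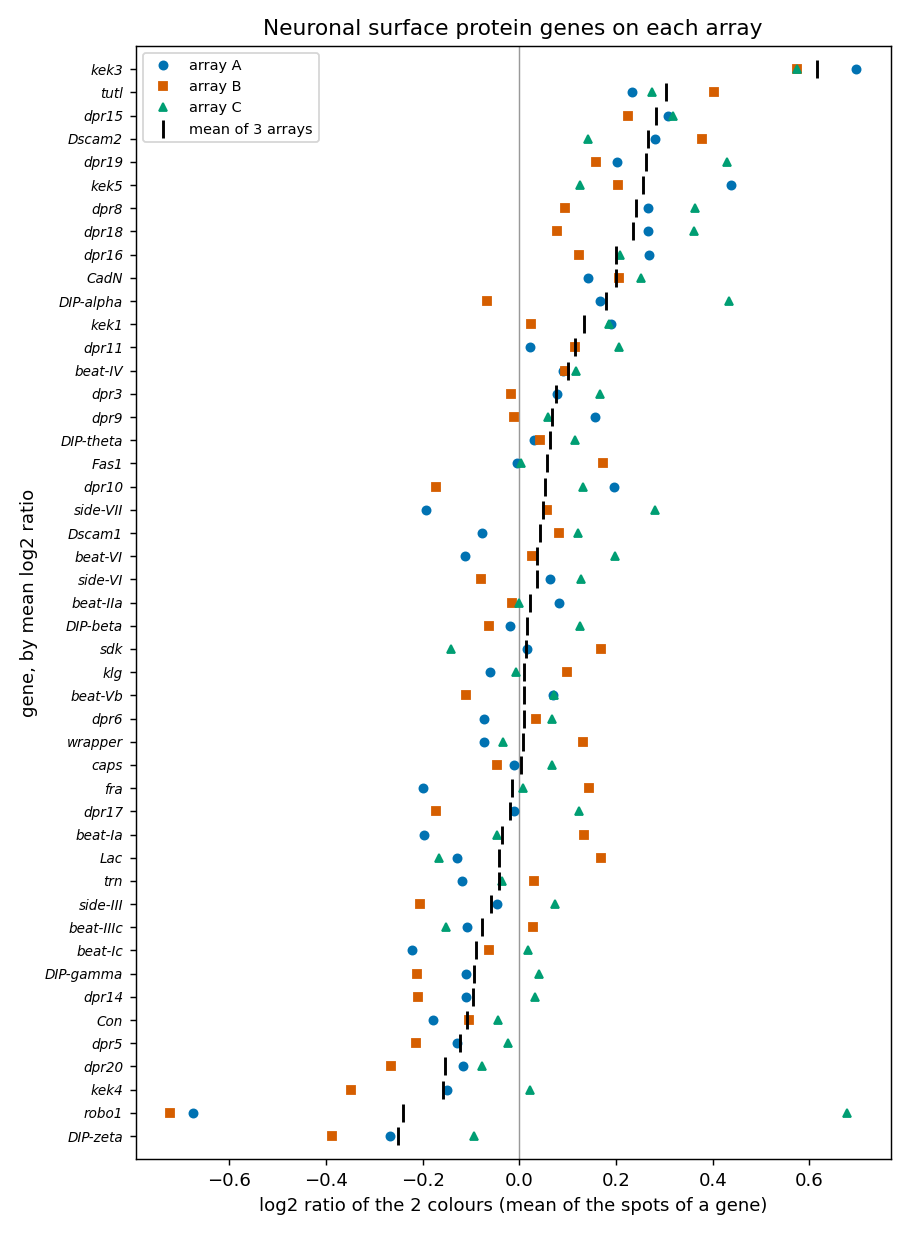
Log2 ratio (x axis) of each of the 47 genes (y axis, ordered by mean) on arrays A (circles), B (squares) and C (triangles), with the mean of the 3 arrays as a vertical bar. *kek3* stands at the top with a mean of 0.62, most genes straddle 0, and *robo1* has array C at 0.68 and arrays A and B at −0.68 and −0.72.

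The share of positive values was highest on array C. There, 35 of the 47 genes were above 0 (74.5%, against 47.9% of all genes) and their median was 0.12, against −0.0072 for all genes. On array A 22 were above 0 (46.8%, against 48.9% of all genes) with a median of −0.01, and on array B 27 (57.4%, against 53.0% of all genes) with a median of 0.03. Without array C the number with a positive mean was 25. Neuron markers (*elav*, *futsch*, *nSyb*, *brp*, *cpx* and *Appl*, 6 of 10 listed being measured) also had their highest median on array C, at 0.08, against −0.05 on array A and −0.14 on array B. Of these 6 markers, 4 were above 0 on array C, 1 on array A and 2 on array B. Over the 3 arrays 1 of the 6 had a positive mean, their median was −0.08, and 0 had the same sign on every array. *elav*, which encodes an RNA-binding protein found in all neurons, had log2 ratios of −0.54, −1.26 and 0.13 on arrays A, B and C. The pattern over arrays was not particular to neuron markers. Muscle markers (*Msp300*, *sls* and *up*) had medians of 0.18, −0.06 and 0.38 on arrays A, B and C, and all 3 genes were above 0 on array C. For *Msp300* and *sls* these are means over clones of opposite sign. On array C the clones ran from −0.63 to 0.53 for *Msp300* and from −0.48 to 0.78 for *sls*. Both clones of *up* were above 0 there, at 0.47 and 0.36. Haemocyte markers had −0.07, 0.04 and 0.07 over 9 genes, with 6 above 0 on array C. Epidermal markers were highest on array A (0.14, −0.07 and 0.04 over 6 genes) and glial markers on array B (0.01, 0.20 and −0.05 over 6 genes). The part of RNA from these cell types in the ratios was not tested.

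**Figure D2:**
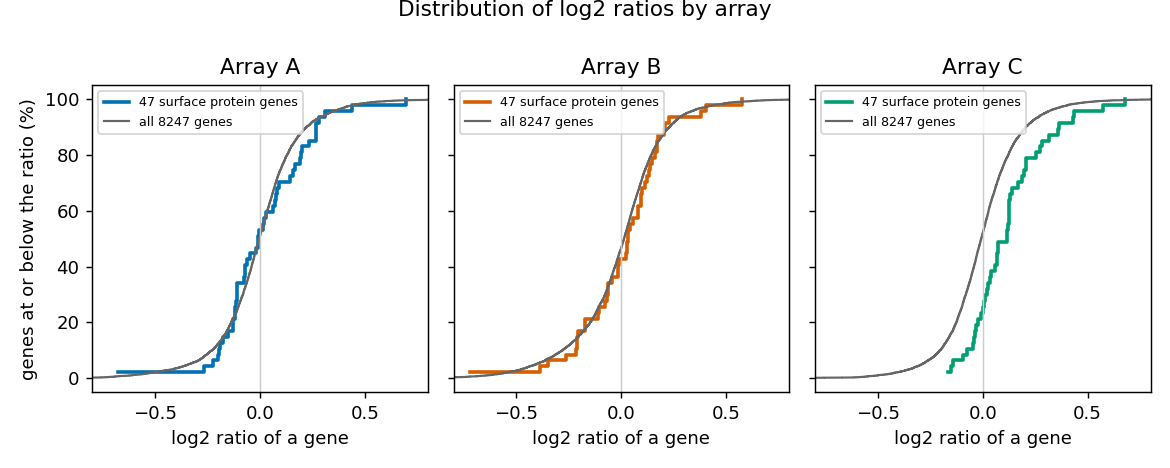
Cumulative share of genes (y axis, %) at or below a log2 ratio (x axis, shown from −0.8 to 0.8) on arrays A, B and C, for the 47 surface protein genes (coloured line) and all 8247 genes (grey line). The lines run together on arrays A and B, and on array C the surface protein genes lie to the right, with a median of 0.12 against −0.0072 for all genes.

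Spots were tested across the whole array with limma, and of 11887 spots 0.513% passed an adjusted p of 0.05 with a high ratio and 1.03% with a low ratio. Among the 56 spots of the surface protein genes, 2 passed with a high ratio (1 spot each of *kek3* and *Dscam2*) and 1 with a low ratio (a spot of *DIP-zeta*). All 3 had a limma adjusted p of 0.0441, which was the smallest on the whole array, so every call lay close to the threshold. These 3 spots belong to the clones by which the group was chosen, so nothing is read from the count. An unadjusted p under 0.05 was reached by 15 of the 56 spots and by 18.4% of all spots. On gene means, where 0.497% of genes passed high and 1.47% low, 1 of the 47 passed high in limma, which was *kek3*, and 0 passed low. At an unadjusted p under 0.05, 10 of the 47 gene means were high and 1 was low, where 8.75% of all genes were high and 9.65% low, and again nothing is read from this count. With any 1 array left out, 0 spots passed on the whole array, those of these genes included. Each of the 3 clones had a second record on the array that bears on it, and these are given next.

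*DIP-zeta* encodes an immunoglobulin-domain partner of Dpr proteins. Its clone RE04226 had log2 ratios of −0.71, −0.83 and −0.54 on arrays A, B and C, a mean of −0.69 ± 0.15 (SD, n = 3) or a ratio of 0.618. A second spot of the same clone, whose name carries the suffix ReAmp, had 0.18, 0.06 and 0.35, a mean of 0.19 ± 0.15 (SD, n = 3). The values of these spots did not overlap and had opposite signs on all 3 arrays. The gap of 0.89 between them was the 8th largest among the 383 clones that had both kinds of spot. The mean of both spots, −0.25 ± 0.15 (SD, n = 3), was the lowest of the 47 genes and describes neither spot.

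*kek3* belongs to the Kekkon family of transmembrane proteins with leucine-rich repeats and an immunoglobulin domain. Its spot, GH12215_rdnd, had log2 ratios of 0.70, 0.58 and 0.57, a mean of 0.62 ± 0.07 (SD, n = 3) or a ratio of 1.53. The other spot of this clone, GH12215, had 0.71, 0.65 and 0.51 (mean 0.62 ± 0.10, SD, n = 3), so the clone gave the same value on both spots. The platform annotation gives GH12215 a pair of symbols, *kek3* and *Sirup*, and the sequence record that names GH12215_rdnd is 1 of the 2 records of GH12215. *Sirup*, which encodes a mitochondrial assembly factor, has a clone of its own, GH18422, with 0.70, 0.68 and 0.60 (mean 0.66 ± 0.05, SD, n = 3). The *Sirup* clone and the *kek3* spot overlapped in their values, and no other spot lists *kek3*. The ratio of clone GH12215 therefore cannot be assigned to *kek3* from these files.

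*Dscam2* encodes an immunoglobulin protein through which branches of like neurons repel each other. Its clone AT03867 gave 0.43, 0.42 and 0.42 in array order, a mean of 0.42 ± 0.01 (SD, n = 3) or a ratio of 1.34. A different clone of the gene, GH24836, had 0.39, 0.37 and 0.20 (mean 0.32 ± 0.11, SD, n = 3), and the ReAmp spot of AT03867 had 0.03, 0.35 and −0.19 (mean 0.06 ± 0.27, SD, n = 3). Both clones were above 0 on every array, while the ReAmp spot was below 0 on array C. The mean of the 3 spots was 0.27 ± 0.12 (SD, n = 3). *Dscam1*, whose very many splice forms serve self-recognition of single neurons, had spot means of −0.0031 and 0.09 on its clones HL02328 and SD09407, with array A below 0 on both.

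**Figure D3:**
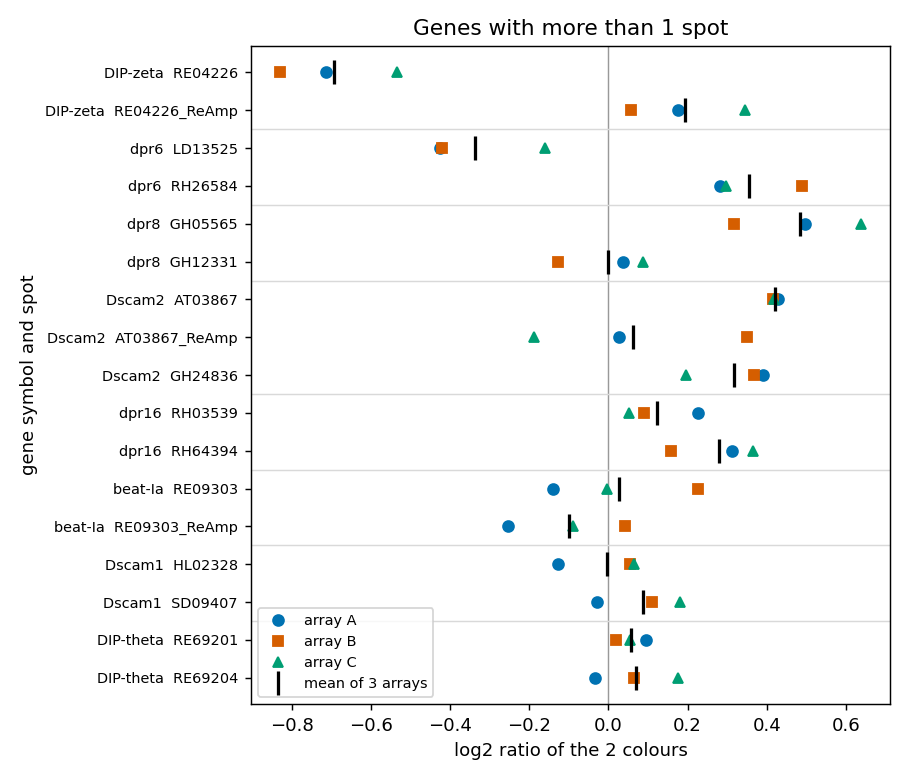
Log2 ratio (x axis) of each spot of the 8 genes with more than 1 spot (y axis, gene and spot name) on arrays A (circles), B (squares) and C (triangles), with the mean as a vertical bar. The spots of *DIP-zeta* and those of *dpr6* lie on opposite sides of 0, and the spots of *DIP-theta* and of *dpr16* lie on the same side by their means.

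Disagreement between a spot and its ReAmp repeat was not confined to these genes, but was seen over the clones with both kinds of spot. Over 383 clones the mean log2 ratios of first and ReAmp spots had a Pearson r of 0.03 and a Spearman rho of 0.10 (clones share the 3 hybridisations and are not independent replicates), and 60.6% of pairs had the same sign. The SD over clones was 0.32 for first spots and 0.16 for ReAmp spots, and the median gap was 0.16. Over the gene means of all 8247 genes the SD was 0.16, so the first spots of these clones were more widely spread than genes in general. Of 15 clones whose first spot passed the test, 12 had a ReAmp spot of the same sign. The ReAmp spots had a median of 0.08 in the direction of the first spot, against 0.56 for the first spots themselves. These clones were picked by their first spots, RE04226 and AT03867 among them. A smaller median on the repeats follows from that choice, and nothing is read from the difference. *beat-Ia*, the remaining surface protein gene with such a pair, had a mean of 0.03 on its first spot and −0.10 on the repeat.

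**Figure D4:**
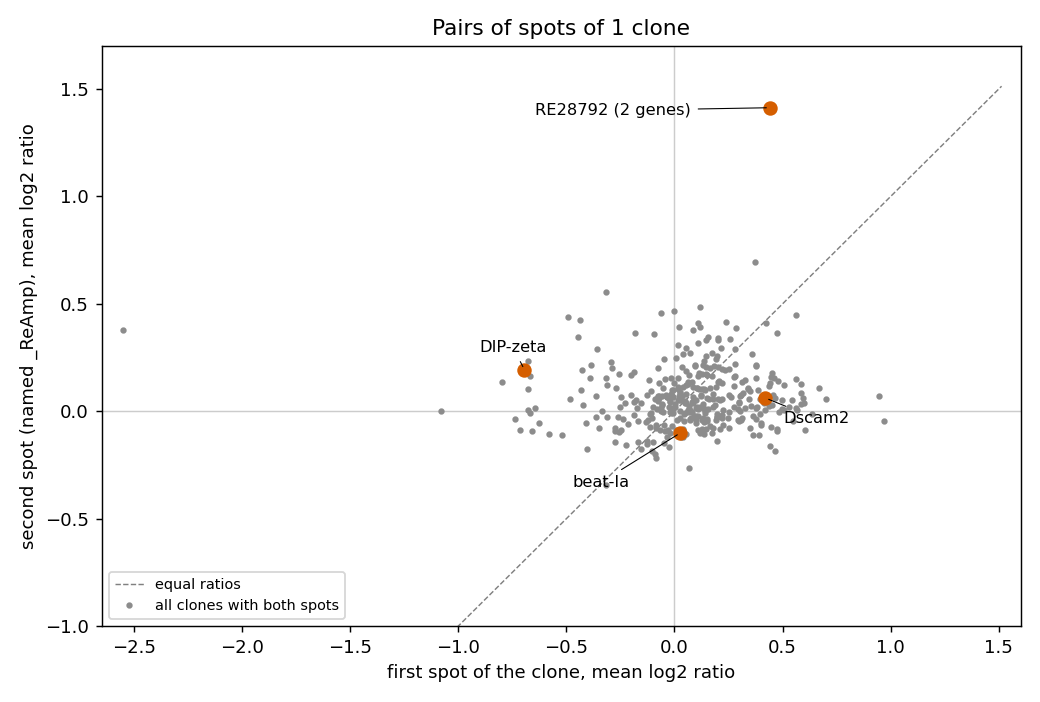
Mean log2 ratio of the ReAmp spot (y axis) against that of the first spot (x axis) for the 383 clones with both (grey points), with *DIP-zeta*, *Dscam2*, *beat-Ia* and a clone annotated with 2 genes marked in orange. Points spread along the x axis around y = 0 and do not follow the dashed line of equal ratios.

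The dpr family had the most measured genes, 14 of 21. Of these, 10 had a positive mean, 6 were above 0 on all 3 arrays, and 2 were below 0 on all 3, and the family median was 0.07, or 0.12, 0.01 and 0.15 by array. *dpr15* had 0.31, 0.23 and 0.32 (mean 0.28 ± 0.05, SD, n = 3) and *dpr19* had 0.20, 0.16 and 0.43 (mean 0.26 ± 0.15, SD, n = 3), so all arrays were high for both. *dpr8* and *dpr18* followed at means of 0.24 and 0.23. At the low end *dpr20* had −0.12, −0.27 and −0.08 (mean −0.15 ± 0.10, SD, n = 3) and *dpr5* had −0.13, −0.21 and −0.02 (mean −0.12 ± 0.10, SD, n = 3), with array B the lowest in each.

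The dpr genes with a pair of clones differed in how well the clones agreed. *dpr6* had −0.43, −0.42 and −0.16 on clone LD13525 (mean −0.34 ± 0.15, SD, n = 3) and 0.28, 0.49 and 0.30 on clone RH26584 (mean 0.36 ± 0.12, SD, n = 3), with no overlap. Their gap of 0.69 ranked 13th among the 975 genes with exactly 2 clones, and the gene mean of 0.0096 describes neither clone. *dpr8* had 0.50, 0.32 and 0.64 on clone GH05565 (mean 0.48 ± 0.16, SD, n = 3) and 0.04, −0.13 and 0.09 on clone GH12331 (mean −0.0019 ± 0.11, SD, n = 3), a gap of 0.49 that ranked 49th. *dpr16* had 0.23, 0.09 and 0.05 on RH03539 and 0.31, 0.16 and 0.37 on RH64394, above 0 throughout. Over the 975 genes the median gap was 0.08, the Pearson r was 0.22, and 64.3% had clones of the same sign. Of the 6 surface protein genes among them, 3 had 1 sign over both clones: *Dscam2*, *dpr16* and *DIP-theta*. *Dscam1*, *dpr6* and *dpr8* did not.

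The DIP family, with 5 of 11 genes measured, had a median of 0.015. *DIP-alpha*, whose protein binds Dpr6 and Dpr10, had 0.17, −0.07 and 0.43 (mean 0.18 ± 0.25, SD, n = 3), so its arrays fell on both sides of 0. Of its partner genes, *dpr10* had a mean of 0.05 ± 0.20 (SD, n = 3), with array B the lowest at −0.17. The other, *dpr6*, had −0.07, 0.03 and 0.07 as the mean of its 2 clones, with array A the lowest. Array B was also the lowest in genes not named as partners of *DIP-alpha*, such as *dpr20* and *dpr5*. *DIP-gamma*, whose protein binds Dpr11, had a mean of −0.09 ± 0.13 (SD, n = 3), while *dpr11* had 0.11 ± 0.09 (SD, n = 3). *DIP-theta* had spot means of 0.06 and 0.07 on its 2 clones, and *DIP-beta* had a mean of 0.015.

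The second network, of Beat and Side proteins, lay near 0. *beat-Ia* encodes a secreted protein that lets motor axons leave their bundle when it meets Side on muscle. The 7 measured beat genes of 14 ran from −0.09 (*beat-Ic*) to 0.10 (*beat-IV*), with a median of 0.01, and *beat-IV* had nearly equal values on the arrays, 0.09, 0.09 and 0.12. The 3 measured side genes of 8 had means of −0.06 (*side-III*), 0.04 (*side-VI*) and 0.05 (*side-VII*). No side gene had the same sign on all arrays, and *side-VII* ran from −0.19 on array A to 0.28 on array C.

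Among the other Kekkon genes, *kek5*, a modulator of BMP signalling, had 0.44, 0.20 and 0.13 (mean 0.26 ± 0.16, SD, n = 3). *kek1*, which encodes an inhibitor of the EGF receptor, had 0.19, 0.02 and 0.19 (mean 0.13 ± 0.09, SD, n = 3). *kek4* had −0.15, −0.35 and 0.02 (mean −0.16 ± 0.19, SD, n = 3). *kek1* and *kek5* were high on each array, and *kek4* was low on arrays A and B and near 0 on array C.

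The guidance receptors gave the least repeatable value of the group. *robo1*, the Slit receptor that keeps axons from crossing the midline again, had −0.68 and −0.72 on arrays A and B but 0.68 on array C (mean −0.24 ± 0.80, SD, n = 3; clone RH66121). Arrays A and B were low and array C was high by a similar amount, so the mean describes no array, and the SD was the largest of the 47 genes. The Netrin receptor gene *fra* had a mean of −0.02 ± 0.17 (SD, n = 3).

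Of the remaining adhesion genes most lay near 0. *tutl*, which encodes the immunoglobulin protein Turtle that spaces axon and dendrite branches, had the highest ratio among them with 0.23, 0.40 and 0.27 (mean 0.30 ± 0.09, SD, n = 3; ratio 1.23), and it had 1 spot only. *CadN*, the N-cadherin gene, had 0.14, 0.21 and 0.25 (mean 0.20 ± 0.06, SD, n = 3), high on each array. *sdk* (0.01), *klg* (0.01), *wrapper* of midline glia (0.0083), *Lac* (−0.04) and the fasciclin gene *Fas1* (0.06) had means within 0.1 of 0. So had the leucine-rich repeat genes *caps* (0.0035) and *trn* (−0.04), while *Con*, which encodes the muscle and motor neuron protein Connectin, had −0.18, −0.10 and −0.04 (mean −0.11 ± 0.07, SD, n = 3).

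Besides the spot of *kek3*, 7 spots of 6 clones list a surface protein gene beside an unrelated gene, and they are given because 1 clone was counted under *kek3* by 1 of its spots. Clone RE46711, listed as *RpL10Ab* and *fra*, had 0.08, −0.14 and −0.05, and the *RpL10Ab* clone RE08425 had 0.08, −0.12 and −0.04, while the *fra* clone RE61427 had −0.20, 0.14 and 0.01. The clone with both symbols and the *RpL10Ab* clone had the same sign on each array, and the *fra* clone had the opposite one. Clone RE28792, listed as *SF1* and *Dscam3*, had 0.37, 0.56 and 0.39 on its first spot and 1.68, 1.62 and 0.94 on its ReAmp spot, against −0.13, 0.25 and −0.39 for the *SF1* clone GM14833. Its spots were above 0 on every array, and the *SF1* clone was above 0 on array B alone. Clone RE42927, listed as *Coa7* and *DIP-kappa*, had a mean of 0.18 ± 0.20 (SD, n = 3), and the *Coa7* clone RE58665 had 0.01 ± 0.03 (SD, n = 3). Clone GH11072, listed as *ATPsynCF6* and *CadN*, had −0.04, −0.0058 and −0.07, below 0 on each array, where the *CadN* clone SD09675 was above 0 on each. Clone LD22322, listed as *Patj* and *sdk*, had a mean of −0.0024 ± 0.14 (SD, n = 3), and the *sdk* clone RE63453 had 0.01 ± 0.15 (SD, n = 3). No gene is assigned to these spots here.

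**Figure D5:**
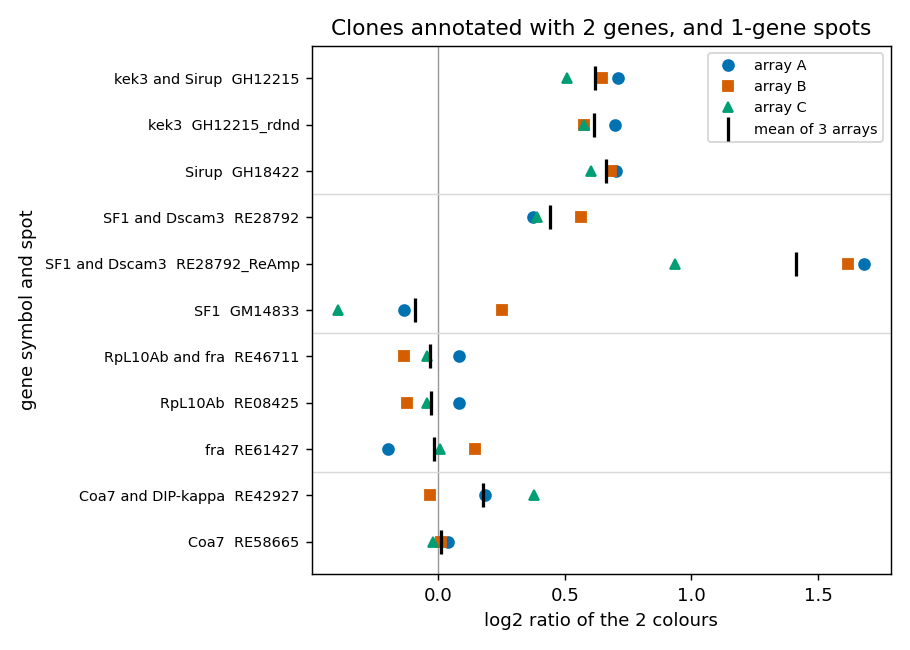
Log2 ratio (x axis) of spots annotated with 2 genes and of spots annotated with 1 of those genes (y axis, symbols and spot name) on arrays A (circles), B (squares) and C (triangles), with the mean as a vertical bar. The spots of GH12215 lie beside the *Sirup* clone at means of 0.62, 0.62 and 0.66, and RE46711 lies beside the *RpL10Ab* clone.

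Spots came from several cDNA clone libraries, named by their prefix, and these had offsets of their own. GH clones were 32.1% of the surface protein spots and 18.2% of all spots, with medians of 0.0032 and −0.03. RH clones were 12.5% and 8.95%, with medians of 0.12 and 0.08, and 6 of the 7 RH surface protein spots were positive. RE clones were 28.6% and 20.7%, with medians of 0.02 and 0.0024. AT clones were 3.57% and 8.89%, with medians of 0.24 and 0.05, and the 2 AT surface protein spots were those of the *Dscam2* clone AT03867. With each library centred on each array, 29 of the 47 genes had a positive mean and their median was 0.02. In that setting 0 of all 11887 spots passed the test in limma, and 15 of the 56 surface protein spots had an unadjusted p under 0.05, against 18.5% of all spots.

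Ligands, receptors and cytoplasmic partners of axon guidance and neuronal adhesion outside the symbol rule were counted for comparison. Of 41 measured genes of a list of 59, 0 had a spot past the threshold with a high ratio and 1 had one with a low ratio. At an unadjusted p under 0.05 in limma, 7 of the 59 spots of the list were high and 6 low. Of all spots, 18.4% reached it in either direction, and nothing is read from this count. The gene past the threshold was *PlexB*, which encodes a semaphorin receptor, with array values of −0.39, −0.75 and −0.67 (mean −0.60 ± 0.19, SD, n = 3; limma adjusted p = 0.0470), a call that was lost, like every call on the array, when any 1 array was left out. The 59 spots of the list thus held 1 call, beside 1.03% of all spots called low. The list median was 0.0002, and 21 of its 41 genes had a positive mean. Of the 47 surface protein genes 31 did, and the difference between the lists was not tested.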

How the data were processed

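The deposited table held 12144 rows with 1 score per array, and no label or header names the scanner, background correction or normalization. Every deposited score was negative, and the medians of arrays A, B and C were −1.001, −1.01 and −0.997, below a highest value of −0.01. From these values the deposited score was taken to be a linear colour ratio with its sign turned, centred near 1 by the authors, with a floor of 0.01. Its scale and direction are unstated. The sign was removed and log2 taken. Spot intensities were not used here, so dim spots stayed in, and precision is limited by having 3 arrays.

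The 160 control spots were left out, and 11887 spots with a value on all 3 arrays were fitted with an intercept in limma 3.58.1 under R 4.3.3, with Benjamini-Hochberg adjustment over all of them at 0.05, after a test on simulated data. The p-values reflect array-to-array spread alone, which may be technical. Symbols came from the platform annotation. Current names were looked up by Entrez identifier in a RefSeq gene table (assembly Release 6 plus ISO1 MT), which matched all 57 surface protein spots and changed no name. Spots with several symbols were given no gene. A gene's value is the mean of its spots. The members and lists were chosen with earlier results of these data known. Array values are given for the clones of *DIP-zeta*, *kek3* and *Dscam2*, the 5 highest and 5 lowest genes, genes of 0.3 or more in size with 1 sign, genes with 2 or more clones and, of the partner list, genes past the threshold. Array values of other genes, *elav* and the spots with a pair of symbols were chosen after they were seen.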

Additional observations from a re-analysis of the deposited data

Results flagged for a closer look

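Some spots were left out of the gene values because they list a surface protein gene beside another gene. Of these, 2 had a mean log2 ratio above the range of the plant control spots. Over 119 plant control spots the means ran from −2.68 to 0.46, with a median of −0.23. The ReAmp spot of clone RE28792 (*SF1* and *Dscam3*) had a mean of 1.41 ± 0.41 (SD, n = 3), and its gap of 0.97 to the first spot was the 4th largest of 383. Clone GH12215 (*kek3* and *Sirup*) had a mean of 0.62. Of the spots past the threshold described above, *DIP-zeta* RE04226 (−0.69), *PlexB* (−0.60) and *Dscam2* AT03867 (0.42) lay within the range of the plant control spots. The *kek3* spot GH12215_rdnd (0.62) lay above it.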

How the results depend on the processing

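Against 2 high and 1 low call among the surface protein spots, an adjusted p of 0.10 gave 7 and 2, gene means 1 and 0, array weights 4 high, and the linear ratio and centred clone libraries 0 and 0 each. The whole array moved likewise: array weights called 1.55% of all spots high, against 0.513%, and the linear ratio and centred libraries called 0 of 11887 spots. The share of all spots past an adjusted p of 0.10 was not counted. Nothing is therefore read from the counts at 0.10, for surface protein or partner spots. With any single array left out, limma called 0 to 0 of these spots high and 0 to 0 low, and 0 spots on the whole array. Of the 56 spots, 12 to 17 then had an unadjusted p under 0.05, beside 11% to 19.8% of all spots. Against 0 high and 1 low call among partner genes, an adjusted p of 0.10 gave 2 and 3, array weights 1 high, and centred arrays, values on at least 2 arrays, the linear ratio, centred libraries and kept control spots 0 low each. Single arrays left out gave 0 to 0 low calls. Over all settings tested on spots, 9 to 14 of the 59 partner spots had an unadjusted p under 0.05 in limma, beside 11% to 21.8% of all spots. The causes were not tested. The *Dscam2* clone AT03867 moved to 0.37 with centred libraries. The median of the surface protein genes stayed between 0.01 and 0.05 under 15 alternatives. Of these, leaving out repeat spots, counting spots with several symbols and leaving out *kek3* were chosen after seeing the data. No paired analysis was possible because the arrays form 1 group.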
